A study of Mus musculus with 2 samples.

Results

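The 30 genes described here encode proteins of megakaryocytes and platelets, and they are a list of gene names. The rule uses no measured value, but the list was made with earlier results of these arrays known. All 30 had at least 1 probe under their gene name on the array, out of 34732 genes with a probe, and 41 probes carried them in all. They were read in mouse mast cells cultured from bone marrow, on 2 Agilent 1-colour arrays. One array held RNA of cells transfected with 200 pmol of a control siRNA, the other RNA of cells transfected with the same amount of a GATA1 siRNA. C57BL/6 marrow mononuclear cells had been kept in interleukin 3 (10 ng/mL) for 2 weeks, after which stem cell factor (10 ng/mL) was added for another 2 weeks. Material of 2 animals was pooled per siRNA, so each condition is a single array without replicates: differences have no p-value, and precision is limited by the number of arrays. The age of the animals and the time between transfection and harvest are not given in the sources used here.

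Megakaryocytes are the marrow cells that shed platelets. Platelets stop bleeding by binding von Willebrand factor and collagen through surface glycoproteins, by responding to thrombin, ADP and thromboxane, by joining to one another through the fibrinogen receptor, and by releasing the contents of alpha and dense granules. GATA1 is a zinc finger transcription factor needed in the megakaryocyte and red cell lineages, and it works there with FOG1, FLI1, RUNX1 and TAL1. Mast cells also express GATA1 and GATA2, and they carry granules, integrins and thrombin receptors of their own, so several genes known from platelets are read in mast cells as well.

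A signal is given below in scanner units, as the scanner software processed it. A difference is the log2 of the GATA1 siRNA signal over the control siRNA signal after scaling of every signal by its own array's 75th percentile over probes, which came to 303.2 (control siRNA) and 340.0 (GATA1 siRNA). Gata1, the target of the siRNA, had a signal of 16415 with control siRNA and 3930 with GATA1 siRNA, a difference of -2.23. Its single probe matches the minus strand at chrX:7536392-7536451 (mm9, the build of the array's own annotation). The mast cell receptors Kit (62570 and 71892 in the control and GATA1 siRNA cells) and Fcer1a (173223 and 172571) were bright on both arrays, and all 12 genes of a mast cell marker list were well above background.

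A gene was measured where at least 1 of its probes was well above background and unsaturated on both arrays. This held for 23 of the 30 genes (76.7%), beside 58.7% of all genes. Another 6 (Gp6, F2rl1, P2ry12, Tbxa2r, Mmrn1 and Alox12) were above background on neither array, with no signal over 13.4, and Serpine2 was above it on the control siRNA array alone. Genes known mainly from megakaryocytes and platelets stood on both sides of this line. Gp6, the platelet collagen receptor, and Mmrn1, a large granule protein that binds factor V, were not above background, whereas Gp1ba, Itga2b, Pf4, Ppbp, Gp9, Gp5 and Treml1 were above it on both arrays. Whether megakaryocytes were among the cultured cells was not tested.

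**Figure D1:**
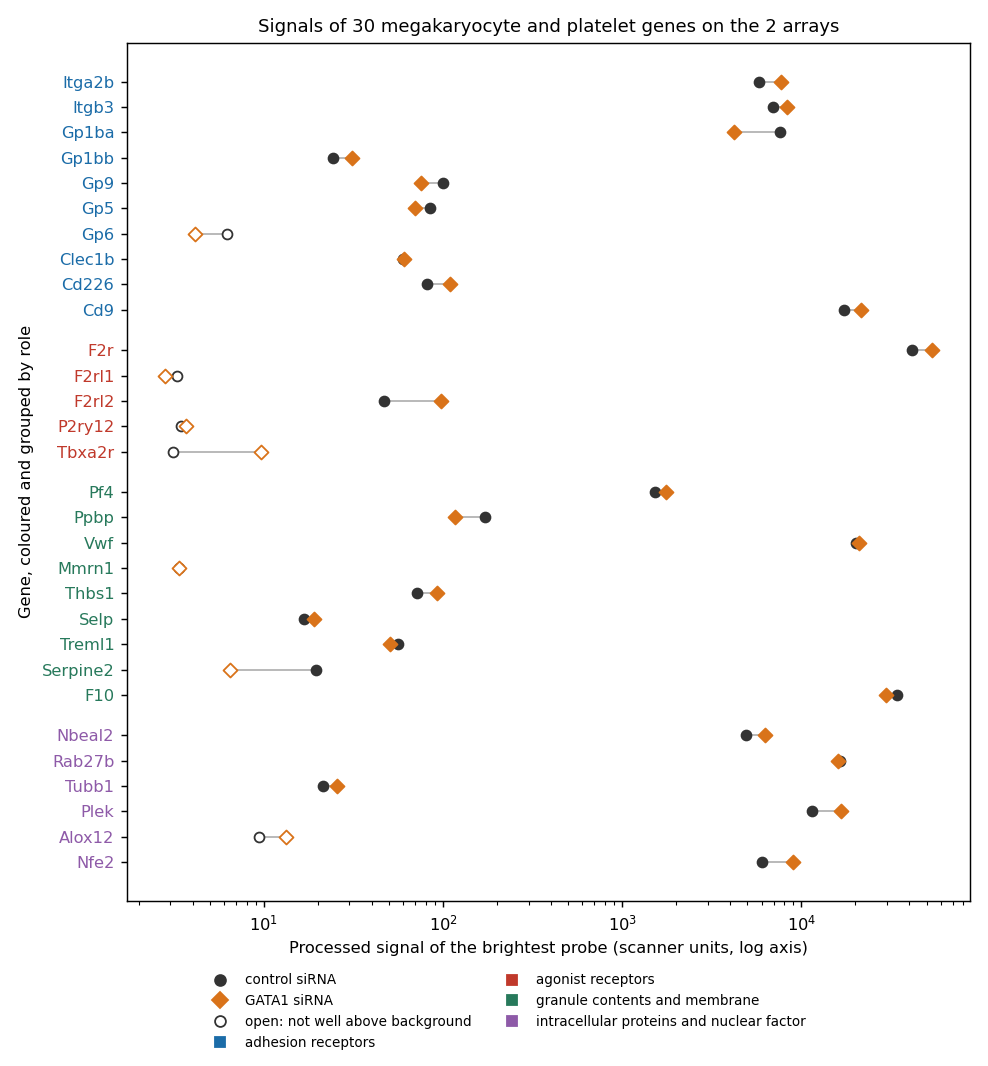
Processed signal of the brightest probe of each of the 30 genes in scanner units (horizontal log axis), with genes on the vertical axis grouped by role. Circles are the control siRNA array, diamonds the GATA1 siRNA array, and open symbols are signals not well above background. Signals are drawn before scaling, and the 75th percentile was 303.2 with control siRNA and 340.0 with GATA1 siRNA, so a drawn shift is not the scaled difference. Gp1ba, Gp9, Gp5, Ppbp, Treml1, Rab27b, F10 and Serpine2 lie lower with GATA1 siRNA. The other genes above background, F2rl2 among them, lie higher. Gp6, F2rl1, P2ry12, Tbxa2r, Mmrn1 and Alox12 are open on both arrays. Positions of different genes on the axis are not comparable levels, because probes differ in brightness.

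Across the group, 1 measured gene was at least 2-fold lower with GATA1 siRNA, beside 0.608% of all 20402 measured genes, and 0 were at least 2-fold higher, beside 0.294%. At a 1.5-fold rule 2 were lower (Gp1ba and Ppbp, beside 2.76% of all genes) and 1 was higher (F2rl2, beside 1.83%). The median difference over the 23 was 0.10, beside 0.01 over all measured genes. Of the 23, 16 were above 0 (beside 52.7% of all genes), and 20 lay within 1.5-fold (beside 19465 of all 20402 measured genes). The SD of the differences was 0.41 over the 23 and 0.29 over all measured genes. As a measure of error, the scanner software's own error for a difference had a median of 0.20 over the 29 measured probes of these genes (highest 0.42). Its lowest value was also 0.20: it was nearly the same for all bright probes, so it does not tell their precision apart. Probes that the array prints repeatedly gave a median SD of 0.06 between spots of a probe, from 0.23 in the dimmest 49 probes to 0.03 in the brightest 49. Neither error includes the spread between cultures or animals. In RNA of a whole culture, fewer cells of a type and less RNA per cell cannot be told apart, which holds for each difference below.

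**Figure D2:**
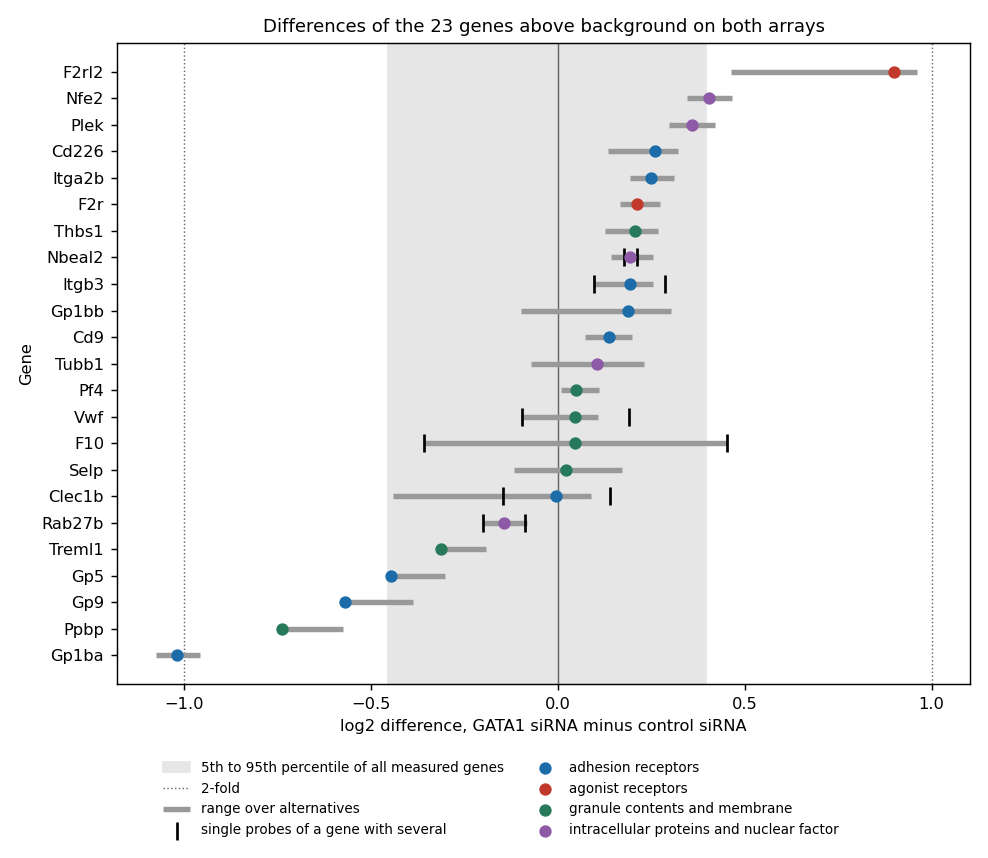
Log2 difference, GATA1 siRNA minus control siRNA (horizontal axis), of the 23 measured genes in order of their difference (vertical axis). Dots are gene values coloured by role, black ticks are single probes where a gene has several measured probes, grey bars span the alternatives of processing, the shaded band holds the central 90% of all measured genes, from -0.46 to 0.40, and dotted lines mark 2-fold. Gp1ba, Ppbp and Gp9 lie left of the band and F2rl2 lies right of it, with Nfe2 at its right edge, while the 2 probes of F10 lie on opposite sides of 0.

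The surface receptor for von Willebrand factor is a complex of 4 gene products, and 3 of the 4 genes were below 0, as were 47.3% of all genes. Of these 3, Gp1ba alone passed a fold rule. Gp1ba, the large chain that binds von Willebrand factor and thrombin, had a signal of 7638 with control siRNA and 4223 with GATA1 siRNA. That is a difference of -1.02, or 2.03-fold lower, with a scanner error of 0.20, and 0.588% of all measured genes had a lower difference. Its spot was even on both arrays, with pixel coefficients of variation of 0.060 and 0.055. The probe lies on the plus strand of chromosome 11 at 70455461 to 70455520 (mm9). The 2-fold call sits at its edge: the value was -0.97 with another background correction and -0.96 with the authors' scaling, which end the call but keep the direction.

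Gp9, the small chain that the complex needs to reach the surface, had signals of 100.2 with control siRNA and 75.7 with GATA1 siRNA, a difference of -0.57 with a scanner error of 0.22. Gp5, the chain that associates loosely with the complex and is cut by thrombin, had signals of 84.7 and 69.7, a difference of -0.45 with a scanner error of 0.22. Both were dim, and both differences exceed their scanner error, with 2.95% and 5.18% of all genes at a lower difference. These shares are over genes of every signal level, and dim probes spread more between repeated spots (median SD 0.23 in the dimmest 49). With another background correction Gp9 stood at -0.39 and Gp5 at -0.30, both still below 0. Gp1bb, the chain joined to the product of Gp1ba by a disulfide bond, did not share this direction. Of its 3 probes only 1 was above background, at 24.2 with control siRNA and 31.0 with GATA1 siRNA, and its difference of 0.19 is smaller than its scanner error of 0.31. When its dim probes were counted too, Gp1bb stood at -0.10.

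Because GATA1 is a DNA-binding factor, the promoter windows of these genes were read for its motif. The RefSeq promoter table (build GRCm38.p6) holds windows from 250 bases before to 50 bases after the annotated start for 23 of the 30 genes, not for Itgb3, Cd226, F2rl1, Vwf, Thbs1, Rab27b and Nfe2. The motif searched, on both strands, was GATA in the flanks that GATA factors prefer: AGATAA and its form AGATAG, and likewise TGATAA and its form TGATAG. The 250 bases before the start are shown for the complex genes that were lower and for F2rl2, the gene with the highest difference, with motif matches in capitals. The windows are chr11:70638872-70639121 (plus strand) for Gp1ba, chr16:30310782-30311031 (minus strand) for Gp5, chr6:87777820-87778069 (plus strand) for Gp9 and chr13:95696670-95696919 (plus strand) for F2rl2.
Gp1ba: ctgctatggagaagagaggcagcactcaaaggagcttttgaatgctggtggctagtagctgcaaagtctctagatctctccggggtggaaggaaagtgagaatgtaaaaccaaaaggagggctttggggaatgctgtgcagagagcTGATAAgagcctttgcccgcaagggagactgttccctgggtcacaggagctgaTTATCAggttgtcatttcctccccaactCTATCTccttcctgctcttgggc
Gp5: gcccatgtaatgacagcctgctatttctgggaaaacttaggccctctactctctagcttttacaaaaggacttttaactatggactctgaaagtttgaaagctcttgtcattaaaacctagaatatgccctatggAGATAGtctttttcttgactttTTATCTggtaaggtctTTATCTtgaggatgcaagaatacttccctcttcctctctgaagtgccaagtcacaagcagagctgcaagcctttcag
Gp9: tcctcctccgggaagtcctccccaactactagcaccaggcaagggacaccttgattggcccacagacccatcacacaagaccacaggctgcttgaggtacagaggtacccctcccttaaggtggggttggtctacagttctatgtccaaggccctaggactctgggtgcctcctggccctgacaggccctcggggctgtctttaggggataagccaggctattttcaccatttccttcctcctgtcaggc
F2rl2: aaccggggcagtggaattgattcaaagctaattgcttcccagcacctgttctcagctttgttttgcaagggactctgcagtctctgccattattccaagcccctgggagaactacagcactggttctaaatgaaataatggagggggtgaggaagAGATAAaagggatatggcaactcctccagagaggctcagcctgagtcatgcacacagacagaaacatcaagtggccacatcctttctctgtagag
The Gp1ba window holds 3 matches, whose leftmost bases lie at -104, -51 and -23 from the start. The Gp5 window also holds 3, at -115, -93 and -77, the Gp9 window holds none, and the F2rl2 window holds 1, at -95. Of all 32851 windows in the table, 1.76% hold 3 or more matches and 29.8% hold at least 1. Among the 23 genes with a window, 8 had at least 1 match: Gp1ba, Gp5, Clec1b, Pf4, Gp1bb, F2rl2, Gp6 and Mmrn1. Of these 8, 6 were measured, and 3 were above 0 and 3 below it, with a median difference of 0.02. Of the 15 genes without a match, 11 were measured, with a median of 0.10 and 3 below 0. A match is a description of these letters, not a binding site, and no match in this window says nothing of more distant elements.

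**Figure D3:**
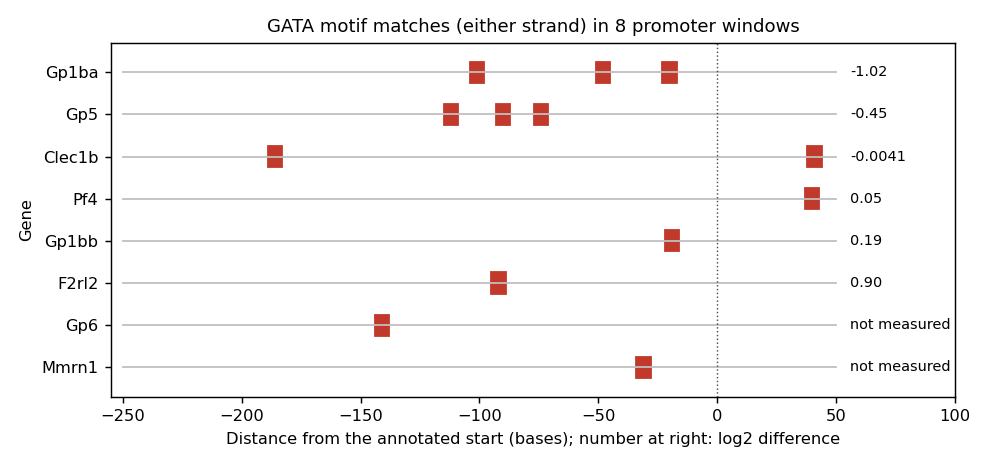
Positions of GATA motif matches on either strand (red boxes) in the promoter windows of the 8 genes that hold at least 1, by distance from the annotated start in bases (horizontal axis), one gene per line in order of its difference (printed at the right, log2). Gp1ba and Gp5 hold 3 matches each and are the lowest of the 6 measured genes drawn, whereas F2rl2, with 1 match, is the highest. Clec1b, with 2 matches, stands at -0.0041. Ppbp (-0.74) and Gp9 (-0.57), whose windows hold 0 matches, are not drawn and were lower than Gp5 (-0.45). Gp6 and Mmrn1 were not measured.

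ETS factors such as FLI1 act beside GATA1 on megakaryocyte promoters. The ETS motif GGAAGT or GGAAGG, on both strands, was found in the windows of 17 of the 23 genes, and 48% of all windows hold it. The NF-E2 and AP-1 motif TGAGTCA, also on both strands, was found in the windows of F2r and F2rl2 and in 5.2% of all windows. A base may belong to matches of more than 1 motif. The Gp1ba window holds 2 ETS matches besides its GATA matches.

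The fibrinogen receptor genes differed in the other direction, by small amounts. Itga2b, which encodes the alpha IIb chain and is a classic marker of the megakaryocyte lineage, had signals of 5813 with control siRNA and 7742 with GATA1 siRNA, a difference of 0.25. Its partner Itgb3, the beta 3 chain, which mast cells also pair with the alpha V chain, was measured by 2 probes, at 6972 and 8363 and at 187.3 and 256.3 in the control and GATA1 siRNA cells. Their differences were 0.10 and 0.29, with a mean of 0.19. Both genes were higher with GATA1 siRNA under every scaling tried, but by amounts close to the scanner error of 0.20 for Itga2b and 0.14 for Itgb3. The Itga2b window held 0 matches of the GATA motif as searched here.

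The other adhesion genes differed little. Cd9, a tetraspanin abundant on platelets and mast cells, had signals of 17403 with control siRNA and 21453 with GATA1 siRNA, a difference of 0.14. Cd226, an adhesion receptor of platelets and lymphocytes, had signals of 81.0 and 108.8, a difference of 0.26. Clec1b, the receptor for podoplanin, was measured by 2 of its 3 probes, at 59.6 and 60.3 and at 21.1 and 26.1, with differences of -0.15 and 0.14. The sign of its mean (-0.0041) turns with the scaling, up to 0.09. Gp6 was not above background, at 6.2 and 4.1.

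Of the 5 receptors for soluble agonists, 2 were measured, beside 58.7% of all genes. Both are thrombin receptors, and both were higher with GATA1 siRNA, as were 52.7% of all measured genes. F2r, the main thrombin receptor of many cell types, was bright on both arrays, at 41361 with control siRNA and 53671 with GATA1 siRNA, a difference of 0.21. F2rl2, which on mouse platelets helps thrombin to activate another receptor of the family, was dim, at 46.5 with control siRNA and 97.3 with GATA1 siRNA. Its difference of 0.90, with a scanner error of 0.23, is the highest of the 23. Of all measured genes, bright and dim together, 99.6% had a lower one. With another background correction it was 0.46, so the size of this difference depends on how the background of a dim spot is treated. F2rl1, the family member that trypsin and tryptase cleave, was not above background (3.3 and 2.8). The 3 genes lie together on chromosome 13, where the probe of F2r lies 89.8 kb from that of F2rl1 and 99.9 kb from that of F2rl2 (mm9). The remaining agonist receptors, P2ry12 for ADP (3.5 and 3.7) and Tbxa2r for thromboxane (3.1 and 9.7), were not above background on either array.

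Among the granule proteins, the neighbouring chemokine genes Pf4 and Ppbp differed unequally. Their probes lie 3245 bp apart on the plus strand of chromosome 5 (mm9). Pf4, platelet factor 4, had signals of 1518 with control siRNA and 1762 with GATA1 siRNA, a difference of 0.05. Ppbp, the precursor of platelet basic protein, had signals of 172.4 and 116.0, a difference of -0.74, or 1.67-fold lower, with a scanner error of 0.21. With another background correction Ppbp stood at -0.577, which ends its 1.5-fold call (0.585 on the log2 scale) but keeps the direction. The 2 arrays thus gave Pf4 values within the scanner error of 0.20, while 1.5% of all genes had a lower difference than Ppbp. The Pf4 window held 1 GATA match, at 37 bases past the start, and the Ppbp window held none.

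Vwf, the adhesive protein of platelets and endothelium, was bright at the probe of its RefSeq transcript, with signals of 20076 with control siRNA and 21043 with GATA1 siRNA, a difference of -0.10. A second probe, for another transcript model, gave 310.6 and 397.6, a difference of 0.19, and it lies at a spot with at least 2 neighbours that differ 4-fold between the arrays. The gene's mean was 0.05, and without that spot the value was -0.09. Vwf is known also from endothelial cells, and their markers Cdh5, Emcn and Tie1 were above background on neither array. Tek was above it with GATA1 siRNA only (7.3 and 15.0), and Kdr, from the same list, was bright (7468 and 7386). Thbs1, a matrix glycoprotein of alpha granules, had signals of 71.2 and 92.1, a difference of 0.21, which is within its scanner error of 0.22. Mmrn1 gave signals of 3.3 with control siRNA and of 3.3 and 2.9 with GATA1 siRNA at its 2 probes, all at background.

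The granule membrane proteins were dim. Treml1, a receptor found in alpha granules of platelets, had signals of 56.3 with control siRNA and 50.9 with GATA1 siRNA, a difference of -0.31 with a scanner error of 0.23. Selp, the P-selectin of granule membranes, is printed 10 times on the array. Over 9 usable spots its signal had a lowest value of 12.6, a median of 16.7 and a highest of 21.4 with control siRNA, and of 13.5, 19.2 and 26.5 with GATA1 siRNA. The spots overlap between the arrays, 5 of the 9 were higher with GATA1 siRNA, and the difference was 0.02 ± 0.14 (SD over 9 spots of the same RNA, which are not replicates of the cells). Serpine2, an inhibitor of thrombin, was above background with control siRNA only (19.6, against 6.4 with GATA1 siRNA). Set against the lowest signal called above background on the GATA1 siRNA array (13.3), Serpine2 was 1.65-fold lower there after scaling. This is not a lower bound: its difference had a scanner error of 0.71. An Alox12 signal of 13.4 was also not above background on that array.

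F10, coagulation factor X, was measured by 2 probes that differed in direction and in base composition, of which the first 30 bases are these.
F10 probe 1: tggcatctacacaaaggtcacgaccttcct
F10 probe 2: agaaagaaagaaagaaagaaagaaagaaag
The 60 bases of probe 2 are all A or G, and 53.3% of those of probe 1 are. Probe 1 gave 327.9 with control siRNA and 502.7 with GATA1 siRNA, a difference of 0.45, and lies at a spot with neighbours that differ 4-fold. Probe 2 gave 34131 and 29859, a difference of -0.36. The array holds 41 probes with at least 95% A or G, and all 41 were measured on both arrays, beside 51.6% of all probes, with a median difference of -0.29. The mean of the 2 probes (0.05) therefore joins values of opposite sign, and F10 stood at -0.35 without spots that have such neighbours and at 0.45 without probes of only A and G.

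Of the 5 measured genes for proteins inside the cell, 4 were above 0, as were 52.7% of all measured genes. Nfe2, the haematopoietic subunit of the NF-E2 transcription factor that platelet release needs, had signals of 6022 with control siRNA and 8941 with GATA1 siRNA, a difference of 0.40. Plek, pleckstrin, a substrate of protein kinase C, had signals of 11519 and 16574, a difference of 0.36. Both exceed their scanner error of 0.20, kept their sign under every alternative, and stayed under 1.5-fold. Nbeal2, which alpha granules need to form, gave 4931 and 6252 at 1 probe and 2617 and 3397 at the other, with close differences of 0.18 and 0.21.

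Rab27b, a GTPase of granule secretion in platelets and mast cells, was the only measured gene of this role below 0. Its probes gave 16465 with control siRNA and 16054 with GATA1 siRNA, and 2880 and 3040, with differences of -0.20 and -0.09. Tubb1, the beta tubulin of the platelet microtubule coil, was near background at 21.2 and 25.6, and its difference of 0.10 is under its scanner error of 0.33. Alox12, the platelet lipoxygenase, was not above background at either probe (9.4 and 13.4, and 3.0 and 2.6).

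Plek, Thbs1 and F10 are also expressed by other myeloid cells, whose markers differed between the arrays as well. Of 13 neutrophil markers 12 were measured and all 12 were higher with GATA1 siRNA, as were 52.7% of all measured genes. Their median was 0.54, beside 0.01 over all measured genes, with Ltf highest at 0.79. Their summed scaled signal was 100.2 with control siRNA and 147.7 with GATA1 siRNA. Macrophage and monocyte markers (12 of 13 measured) had a median of 0.25, with Ms4a7 highest at 1.09 and sums of 59.3 and 88.2. They did not share 1 direction: 9 were above 0 and 3 below it, with Cx3cr1 at -0.94, Fcgr1 at -0.39 and C1qb at -0.10. Eosinophil markers (8 of 8) had a median of -0.33, from Epx at -0.85 to Siglecf at 0.60, and sums of 32.2 and 24.4. Of the other lists, mast cell markers had a median of -0.10 (lowest Mcpt4, -0.88), with 5 above 0 and 7 below it. Basophil markers had a median of 0.24 (highest Cd69, 0.58), with 5 above 0 and 2 below it. Erythroid markers had a median of 0.26 over 6 of 12, with 4 above 0 and 2 below it. Lowest of these was Epor (-1.58), and highest was Hba-a2, with signals of 546.1 and 1225. Endothelial and stromal markers had a median of -0.08 over 3 of 11 (lowest Kdr, -0.18). The markers Mmp9 and C1qa, and 6 erythroid and 7 endothelial or stromal genes, were above background on neither array. The part of these cells in the differences above was not tested.

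The rest of the platelet programme was read from 6 further lists. Without Gata1 they held 164 genes, of which 145 were measured (88.4%, beside 58.7% of all genes), with a median difference of 0.05. Of these 145, 0 were 2-fold different, beside 0.294% of all measured genes at least 2-fold higher and 0.608% at least 2-fold lower. At least 1.5-fold higher were 2 (Pdgfa and Htr2a), and at least 1.5-fold lower were 5 (Mpig6b, Adra2a, Prkg1, Pros1 and Actn1), which are shares of 1.38% and 3.45%, near the 1.83% and 2.76% of all genes. Htr2a, a serotonin receptor (signals of 19.0 and 39.2, difference 0.88), was close to background with control siRNA and is named after its values were seen. Pros1 encodes protein S, an anticoagulant cofactor (578.0 and 418.4, difference -0.63). Regulators of the lineage, nearly all transcription factors, had a median of 0.01 over 17 measured genes, and Gata1 was the single one past 2-fold. Mafg (0.01) and Mafk (0.0041), the small partners of NF-E2, differed little and were named after their values were seen.

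Other platelet surface and agonist receptors had a median of 0.04 over 23 genes. The lowest were Mpig6b, an inhibitory receptor of megakaryocytes, at -0.91 (signals of 25.1 with control siRNA and 15.0 with GATA1 siRNA), and Adra2a, an adrenaline receptor, at -0.88 (25.8 and 15.7), both close to background. Integrin and receptor signalling genes had a median of 0.07 over 35 genes, with Prkg1, the cyclic GMP kinase, at -0.66 (127.6 and 90.6) and Orai1, a calcium channel, at 0.51 (478.9 and 766.8). Genes of granule formation and secretion lay closest together, with a median of 0.07 over 27 genes and a range from -0.23 to 0.31, where Vipas39, a partner in alpha granule sorting, stood at 0.31 and Dtnbp1, of dense granule formation, at 0.29.

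Other alpha granule proteins had a median of -0.0066 over 21 genes. Pdgfa, a platelet growth factor chain, stood at 0.66 (7781 with control siRNA and 13773 with GATA1 siRNA), with both of its probes higher. Fga, Fgb and Fgg, the fibrinogen chains made in liver, were above background on neither array. Cytoskeletal genes had a median of 0.07 over 23 genes, with Actn1, an actin crosslinker, at -0.60 (89.2 and 65.8) and Tubb6, a beta tubulin, at 0.57 (1833 and 3049).

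**Figure D4:**
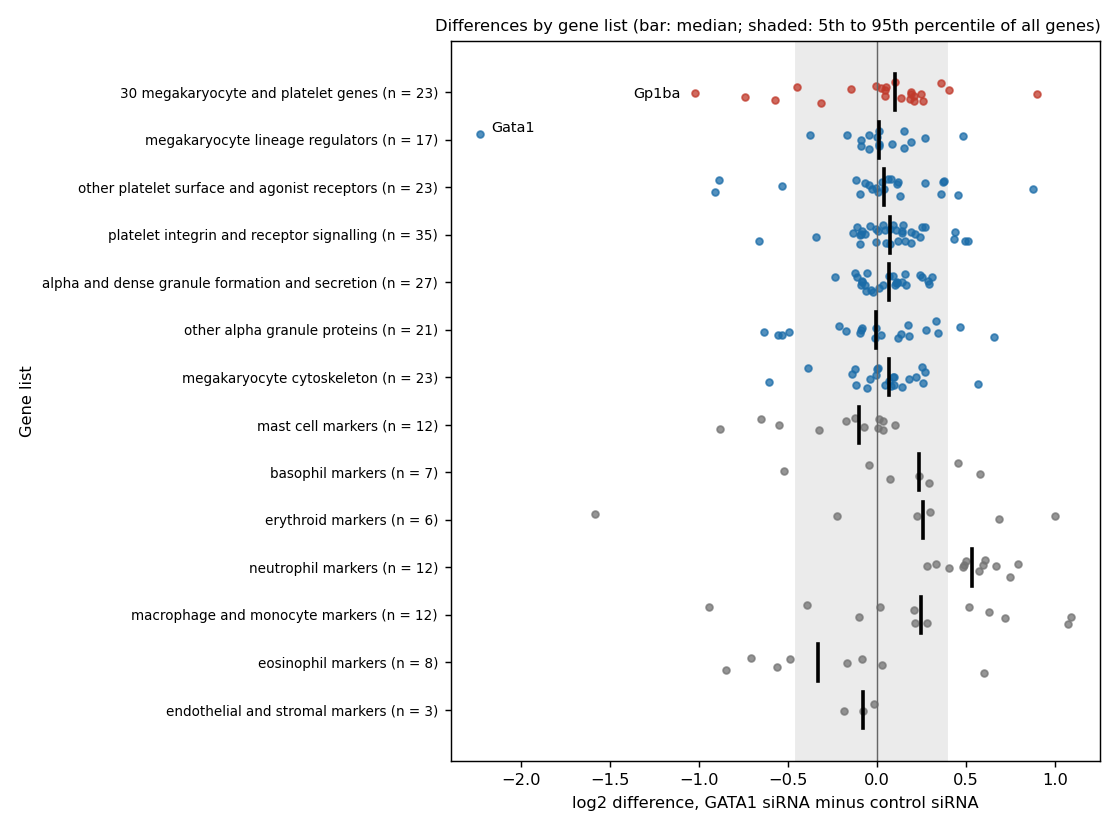
Log2 difference, GATA1 siRNA minus control siRNA (horizontal axis), of every measured gene in the group, in 6 further lists of the platelet programme (blue) and in 7 lists of cell type markers (grey), with list names and numbers of measured genes on the vertical axis. Bars are medians and the shaded band holds the central 90% of all measured genes. The platelet lists have medians between -0.0066 and 0.10, Gata1 stands alone at -2.23, and the neutrophil markers all lie right of 0 with a median of 0.54.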

How the data were processed

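Total RNA of 2 mast cell cultures, grouped by the transfection label, was hybridised to 1-colour arrays. Spot signals are intensity values that the authors deposited, made with Agilent Feature Extraction 10.7.3.1 per the file headers: background-subtracted and detrended, with dim spots given surrogate values and no scaling between arrays. The authors' deposited table of normalized intensity equals these values divided by each array's median and served as an alternative scaling. Its 2 flag columns were not used.

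Control spots and spots flagged as outliers on either array (117 and 133) were left out, and repeated spots were averaged on the log2 scale, leaving 55659 probes. Of these, 52.7% were well above background with control siRNA and 55.2% with GATA1 siRNA, and 0 spots were saturated. A probe printed repeatedly counted as above background where at least 0.5 of its spots were. A gene's difference is the mean over its measured probes. Probes were named by RefSeq accession or symbol (GRCm38.p6 table), otherwise as on the array. Probe coordinates are mm9, as in the array annotation. With 1 array per group a 2-fold rule replaced a test.

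Alternatives were normexp with offset 50 (limma 3.58.1, R 4.3.3), 5 other scalings, the filter on dim probes, the rule for several probes, outlier spots, spots with at least 2 neighbours (within 25 scanner units) differing 4-fold, other fold rules and, added after the values were seen, probes of only A and G left out. All 30 genes are named. In each further platelet list the genes past 2-fold, or otherwise the 2 with the largest absolute difference, are named, and in each marker list the largest. Of the platelet lists, 2 genes were left out and are not reported here. Other genes (Kit, Fcer1a, Mafg, Mafk, Htr2a, Cx3cr1, Fcgr1, C1qb, Siglecf, Hba-a2, Tek and those named as absent) were chosen after their values were seen. The members and lists were chosen with earlier results of these data known. The calculation was tested on simulated data with planted folds, which shows only that the arithmetic recovers them. The simulated array copied the detection calls of the control array, so detection was not tested.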

Additional observations from a re-analysis of the deposited data

How the results depend on the processing

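Over 15 alternatives, the median difference of the measured genes was 0.16 with the authors' table, where the median of all genes also moved to 0.07, and 0.034 with no filter on dim probes, where the median of all genes fell to -0.09. The count of genes at least 2-fold lower was 0 with normexp and 0 with the authors' table, where Gp1ba stood just inside 2-fold. Counting dim probes gave 2 lower and 1 higher, beside 1124 lower and 725 higher among all 34732 genes. The 1.5-fold rule gave 2 lower and 1 higher, beside 2.76% and 1.83% of all measured genes. With normexp, Ppbp (-0.577) and F2rl2 (0.46) lay inside 1.5-fold. The 3-fold rule gave 0 lower, beside 34 of all 20402 measured genes. With a signal of at least 100 required on both arrays, 13 genes were measured in place of 23. Of the 23 genes, 17 kept their sign in every alternative that gave them a value, and Gp1bb, Clec1b, Vwf, Selp, F10 and Tubb1 did not. Under the scalings alone only Clec1b turned. Of 289 gene values under alternatives, 44 moved by more than the SD between repeated spots at that signal. The cause of these shifts was not tested. The median probe, and a signal of at least 100 where it was reached, left every value as it was. A gene with 1 probe cannot change under the rules for several probes. The counts of kept signs and of moved values are therefore not a measure of precision. No paired analysis was possible because each group is 1 array. No array could be left out. Signals close to background (Gp1bb, Selp, Tubb1, Serpine2 and the 6 genes not above it) limit what can be read from them.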
